A study of Micropterus salmoides with 68 samples.

Results

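The gene rrad encodes a small GTPase of the RGK family, a branch of the Ras superfamily named after RAD, GEM and KIR. Its transcript was followed in liver and spleen RNA of largemouth bass (Micropterus salmoides) fingerlings before, during and after road transport. It was taken by name as 1 gene of the 18666 in the expression table. It was singled out because an earlier reading of these data gave it as the largest named fall in spleen at the end of transport. Every comparison that uses the spleens taken before transport or at its end is therefore given as values only, with no test. Liver, and the spleens of the later days set against each other, did not enter that choice and were tested.

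In mammals, RAD (Ras associated with diabetes) binds the beta subunits of voltage-gated calcium channels and damps the L-type calcium current of heart and skeletal muscle. It also binds calmodulin and 14-3-3 proteins. In human cells its gene is a target of p53, and the protein lowers glucose uptake and glycolysis in human tumour cells. The roles given here come from mammals unless another species is named.

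The study sampled 68 tissue pieces, 34 per tissue, in 9 conditions. The first group (T0) was sampled straight after netting from the pond, with no transport. The second (Te) was sampled at the end of 4 h in aerated boxes of 125 fish in 30 L of water carried by car. The third (R1d) was sampled after 1 day of recovery in indoor aquaria. Room temperature was 28 °C for all recovery groups, and none is given for T0 or Te. On days 3, 4 and 5 of recovery (R3d, R4d, R5d) fish labelled abnormal and fish labelled normal were sampled side by side. The labels do not define abnormal or normal. All fish came from one breeding farm, and none was fed during the experiment, so days of recovery were also days without food. Fish kept for the same days without transport were not analysed here, so recovery, fasting, the new tank and its room temperature cannot be told apart. Each group held 4 libraries, except that the abnormal and normal groups of day 3 held 3 each. Tissues were collected individually, so the libraries of a tissue are taken as separate fish. The number of reads per library is not known, because the values are TPM, the share of each transcript in its library after correction for length.

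Libraries were compared before any result. The 4 spleens of R1d correlated less with their own group (median r of log2 values 0.788 to 0.831) than any other spleens did, and fell under a limit of 0.905 set from the spread of all spleens. In liver, 1 library of T0 and 1 of R1d stood apart from their own groups in the same way. No 2 libraries were copies of each other. The liver label fitted its markers: 18 hepatocyte genes made up 8.99% to 17.4% of all TPM in every liver library. In spleen, tlx1, a transcription factor that spleen development requires in mouse, was between 31.2 and 401 TPM in every library.

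In spleen, rrad was one of the more abundant transcripts before transport and much scarcer in abnormal fish. The 4 spleens of T0 had 602, 386, 526 and 354 TPM, a mean of 467 ± 117 (SD, n = 4), and rrad was number 237 of 18666 genes by mean TPM. At Te the spleens had 61.1, 7.13, 36.9 and 23.45 TPM, with a mean of 32.2 ± 22.8 (SD, n = 4). At R1d they had 3.68, 2.84, 7.29 and 5.18 TPM, with a mean of 4.75 ± 1.95 (SD, n = 4). All Te and R1d spleens lay far below every T0 spleen, and Te and R1d overlapped through a single Te fish at 7.13 TPM.

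On the later days the level followed the label of the fish. On day 3 the abnormal spleens had 3.82, 6.5 and 3.95 TPM, against 35.7, 391.93 and 142 TPM in normal spleens. On day 4 the abnormal spleens had 1.18, 4.28, 2.24 and 2.99 TPM, against 449.5, 162, 90.6 and 294 TPM in normal spleens. On day 5 the abnormal spleens had 3.88, 5.66, 27.1 and 9.39 TPM, against 176, 194, 647 and 140.05 TPM in normal spleens. No abnormal spleen reached a normal one on any of the 3 days. Over all 3 days the 11 abnormal spleens spanned 1.18 to 27.1 TPM with a median of 3.95, and the 11 normal spleens spanned 35.7 to 647 TPM with a median of 176. The abnormal spleens of day 4 averaged 2.67 ± 1.30 TPM (SD, n = 4), where rrad was number 13037 of 18666 genes. It was number 10265 in the abnormal spleens of day 3 and number 6504 in those of day 5.

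**Figure D1:**
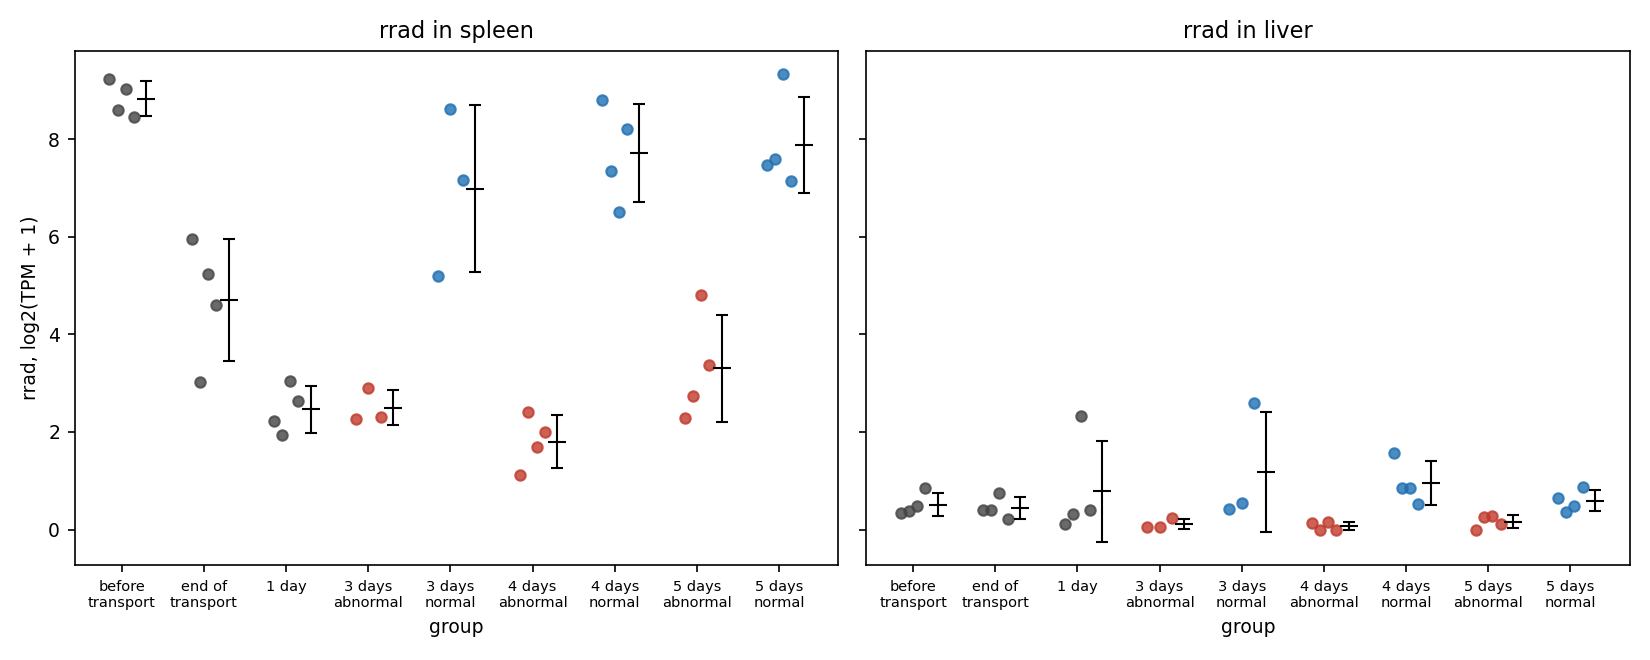
Level of rrad as log2(TPM + 1) in each library (points) with the group mean and SD (bars) for spleen on the left and liver on the right, in order of sampling with abnormal before normal on each day. In spleen the T0 and normal points lie above 5 and the R1d and abnormal points lie below 5, while nearly all liver points lie below 1.

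The span was among the widest of any gene, and it includes the T0 and Te spleens that chose rrad. The highest spleen library had 548.5 times the TPM of the lowest, and the SD of log2(TPM + 1) over the 34 spleens, 2.77, was number 31 of 17998 genes. By mean log2(TPM + 1) the 9 spleen groups fell in the order T0 (8.84), R5d normal (7.89), R4d normal (7.72), R3d normal (6.99), Te (4.71), R5d abnormal (3.30), R3d abnormal (2.49), R1d (2.46) and R4d abnormal (1.80). Each of the 8 steps between neighbours in that order was smaller than the summed SDs of the groups on either side, and their ranges overlapped, so the order within the upper and lower groups is not resolved. The widest step was that from R3d normal to Te.

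As a description, with no test because these spleens chose the gene, mean TPM at Te was 6.89% of that at T0. On the log2(TPM + 1) scale the fitted difference between Te and T0 was -4.13 (SE 0.62), the lowest of 17998 genes, whose median was -0.10. Mean TPM at R1d was 1.02% of that at T0, and the fitted difference was -6.37 (SE 0.62), again the lowest of all genes, whose median was -0.23. Normal spleens averaged 40.7% of the T0 mean on day 3, 53.4% on day 4 and 62.0% on day 5. Their fitted differences from T0 were -1.84 (SE 0.67), -1.11 (SE 0.62) and -0.95 (SE 0.62), and 3 of the 11 normal spleens lay inside the T0 range or above it. Abnormal spleens differed from T0 by -6.34 on day 3, -7.03 on day 4 and -5.53 on day 5. These differences share the T0 spleens.

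The comparison of abnormal with normal fish on the same day used no library that chose the gene. Levels of rrad in abnormal spleens fell to 2.51% of the normal mean on day 3, 1.07% on day 4 and 3.98% on day 5, which is 25.1-fold to 93.3-fold lower. With limma and Benjamini-Hochberg adjustment over 17998 genes, the log2 difference was -4.50 (SE 0.72, adjusted p = 5.01e-05) on day 3. It was -5.92 (SE 0.62, adjusted p = 4.04e-08) on day 4 and -4.59 (SE 0.62, adjusted p = 2.66e-06) on day 5. Averaged over the 3 days it was -5.00 (SE 0.38, 95% interval -5.78 to -4.22, limma adjusted p = 7.63e-12), lower in 11 of 11 abnormal spleens than in any normal one, and the sixth lowest of all genes.

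That comparison moved much of the spleen table. Of all genes tested, 33.5% were called on day 3, 42.1% on day 4, 31.2% on day 5 and 61.9% over the 3 days, and over the 3 days 7.75% were called higher and 54.2% lower in abnormal spleens. The median gene differed by -0.51, and only 12.5% of the called genes were higher. After median-of-ratios rescaling 49.4% of the called genes were higher, after quantile normalization 49.1%, and without the 10 most abundant genes 40.6%. The rrad difference was -4.42, -4.35 and -4.56 under these scalings. An adjusted p under 0.05 was thus common among all genes in this comparison. The share of all genes whose abnormal and normal libraries did not overlap was not counted in either tissue.

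An exact two-sided permutation test of rrad alone gave p = 0.0286 on day 4 and on day 5, and p = 0.1 on day 3, each the smallest that these group sizes allow. Adjusted over 13 such tests they were 0.0619 and 0.163. Permuting labels within days, the mean of the 3 days gave an exact p of 2.04e-05 (adjusted 0.000133), again the smallest possible. The size of the difference did not change detectably from day to day (moderated F test in limma, F = 1.54, adjusted p = 1.00).

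Set against R1d, normal and abnormal spleens went apart. Normal spleens of days 3 to 5 were higher than R1d spleens by 5.07 (SE 0.52, limma adjusted p = 1.92e-08), and all 11 lay above all 4 of R1d. In that comparison 43.5% of genes were called, and 36.3% of all genes were called higher. Abnormal spleens differed from R1d by 0.07 (SE 0.52, 95% interval -0.98 to 1.13, limma adjusted p = 0.945), where 13.9% of genes were called. The interval allows abnormal spleens to lie about a factor of 2 to either side of R1d. All 4 R1d spleens fell under the limit of agreement with their own group, so neither value can be given without such libraries.

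**Figure D2:**
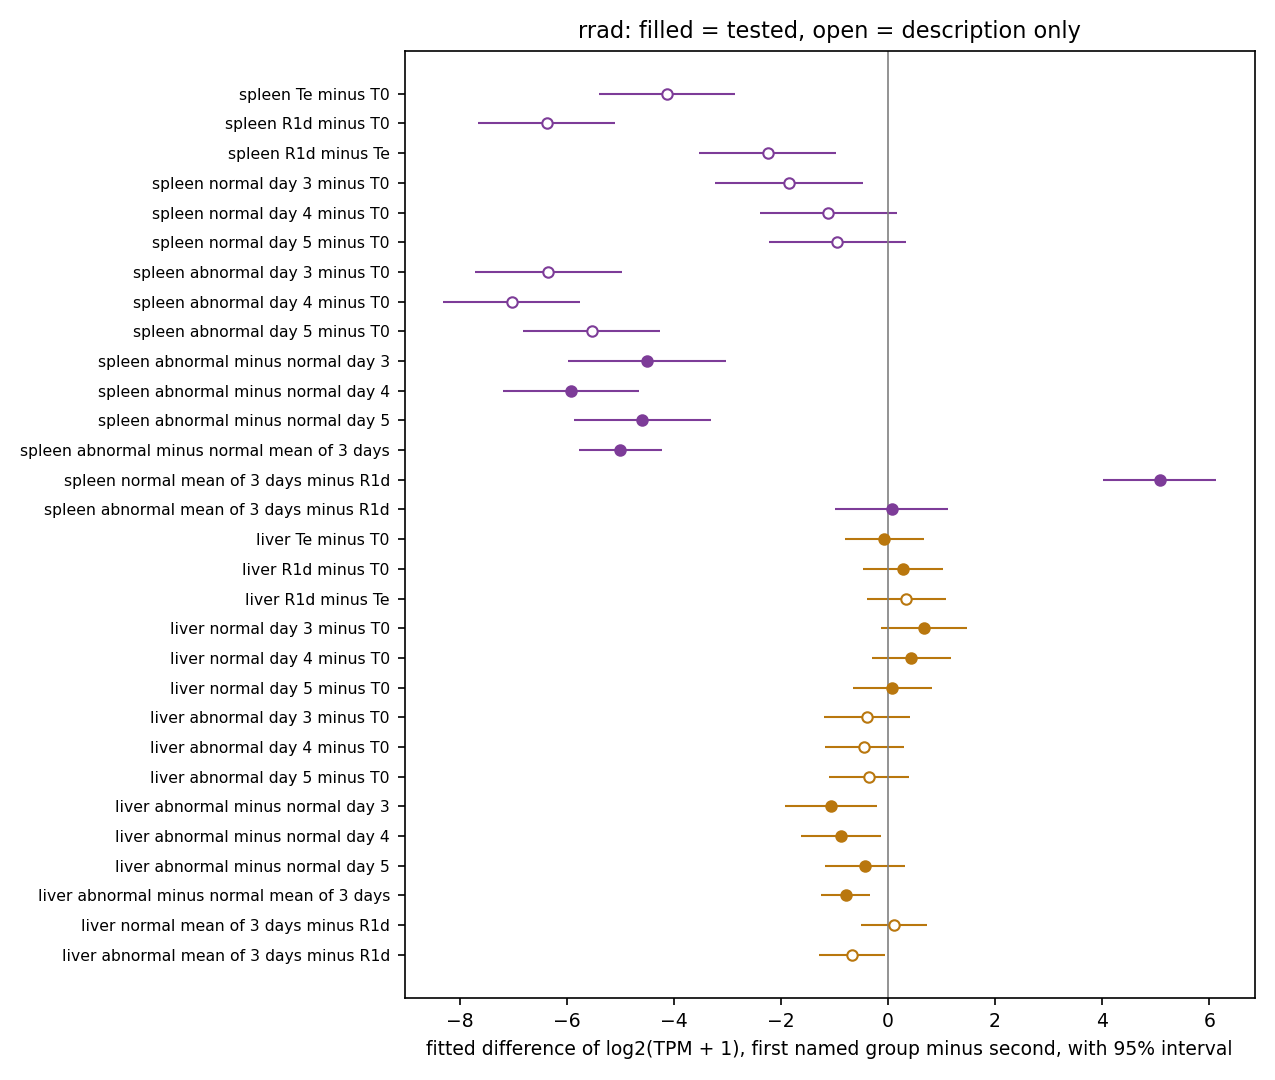
Fitted differences of rrad on the log2(TPM + 1) scale (points) with 95% intervals (lines) for spleen (purple, upper rows) and liver (brown, lower rows). Filled points were tested and open points are description, and the abnormal minus normal differences lie between -5.92 and -4.50 in spleen and between -1.07 and -0.43 in liver.

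Liver held very little rrad. The 34 livers spanned 0 to 5.05 TPM with a median of 0.31, 31 of them lay below 1 TPM, and 3 abnormal livers were listed at 0. The gene entered the liver test only through the 3 livers above 1 TPM, which were 1 of R1d (4.03 TPM), 1 normal fish of day 3 (5.05 TPM) and 1 normal fish of day 4 (1.98 TPM). Among the livers labelled abnormal or normal, only normal ones counted towards that filter, the group where rrad was higher. Livers at Te had 0.32, 0.32, 0.69 and 0.16 TPM, against 0.26, 0.3, 0.39 and 0.81 TPM at T0. These ranges overlapped, and the difference was -0.07 (SE 0.36, limma adjusted p = 0.919), with an exact permutation p of 0.6 and 12.2% of liver genes called. Livers of R1d had 0.08, 0.24, 4.03 and 0.32 TPM and differed from T0 by 0.28 (limma adjusted p = 0.602, 27.3% of genes called). Normal livers differed from T0 by 0.67 on day 3, 0.44 on day 4 and 0.08 on day 5, and none passed (limma adjusted p = 0.183, 0.344 and 0.872), where 36.7%, 42.5% and 43% of genes were called.

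Abnormal livers nevertheless lay below normal livers on each day. On day 3 they had 0.04, 0.04 and 0.17 TPM, against 0.33, 0.45 and 5.05 TPM in normal livers. On day 4 they had 0.09, 0, 0.12 and 0 TPM, against 1.98, 0.81, 0.8 and 0.43 TPM in normal livers. On day 5 they had 0, 0.19, 0.21 and 0.08 TPM, against 0.57, 0.29, 0.39 and 0.84 TPM in normal livers. The groups did not overlap on any day. No single day passed the adjustment in limma (adjusted p = 0.0776, 0.0753 and 0.394), where 17.7%, 26.1% and 28.8% of genes were called. Over the 3 days the log2 difference was -0.79 (SE 0.22, 95% interval -1.25 to -0.34, limma adjusted p = 0.00377), and the exact test within days gave p = 2.04e-05. In that comparison 50.4% of liver genes were called, 29.1% as higher and 21.3% as lower, and the median gene differed by 0.09. With no filter on low values the difference was the same and the limma adjusted p was 0.00443. On the log2(TPM + 1) scale such low values understate the ratio, and with a pseudocount of 0.1 the difference was -2.31.

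On the log2(TPM + 1) scale the abnormal minus normal difference was larger in spleen than in liver by -4.21 (SE 0.45, limma interaction, adjusted p = 3.18e-11). With a pseudocount of 0.1 in place of 1 that difference was -2.98. Normal livers averaged only 1.18, 0.95 and 0.59 in log2(TPM + 1) on days 3, 4 and 5. Even a complete loss of rrad in abnormal livers could not have matched the spleen difference of -5.00. The interaction therefore cannot tell whether rrad fell by a larger ratio in spleen than in liver. Numbers were shared between tissues, but the labels do not say that liver 1 and spleen 1 came from the same fish. Deviations from the group means over all genes correlated at a median of 0.203 between liver and spleen of the same number (-0.309 to 0.402), and 23 of 34 pairs were over 0.1. Taking the spleen minus liver difference of each number, as if both came from 1 fish, gave the same -4.21 (SE 0.42, limma adjusted p = 1.62e-09).

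The RGK family holds RAD, GEM, REM1 and REM2, and gem was not analysed here. In spleen rem1 had 19.2 ± 4.69 TPM at Te and 36.2 ± 6.02 TPM at T0 (SD, n = 4 each), without overlap, and the log2 difference of -0.90 did not pass the test (SE 0.44, limma adjusted p = 0.188). In that comparison 5.23% of all genes were called higher and 6.98% lower, 12.2% in all. It was lower at R1d than at T0 by -2.35 (SE 0.44, limma adjusted p = 0.000644), with 7.32 ± 3.88 TPM at R1d, where 4.17% of all genes were called higher and 15.9% lower. In abnormal spleens rem1 spanned 2.01 to 14.6 TPM, against 2.87 to 20.3 TPM in normal spleens, and differed by 0.15 (SE 0.27, limma adjusted p = 0.637). Under the other 3 scalings that difference was 0.65 to 0.71 and passed the test as higher in abnormal fish, the opposite direction to rrad. In abnormal livers rem1 was higher by 0.74 (SE 0.19, limma adjusted p = 0.00163). The level of rem2 stayed below 1 TPM in the mean of the T0, Te and R1d spleens and was not tested in spleen.

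The calcium channel subunits that RGK proteins act on were scarce in spleen. At Te, where 12.2% of all genes were called, 1 of 5 tested channel genes was lower, the beta subunit cacnb3b, with 1.34 ± 0.197 TPM at Te and 4.76 ± 1.42 TPM at T0 (log2 difference -1.27, SE 0.35, limma adjusted p = 0.0142). The pore subunit of the L-type channel, cacna1c, had 0.693 ± 0.298 TPM at Te and 1.60 ± 0.495 TPM at T0 and did not pass. Between abnormal and normal spleens 2 of the 5 passed, in opposite directions, where 61.9% of all genes were called. The beta subunit gene cacnb2a was 0.33 to 2.05 TPM in abnormal spleens, against 3.13 to 7.63 TPM in normal spleens (-1.53, SE 0.17, limma adjusted p = 6.30e-09). These ranges did not overlap, a separation not counted over all genes. The beta subunit gene cacnb4a was 0.23 to 2.31 TPM in abnormal spleens, against 0 to 0.22 TPM in normal spleens (0.69, SE 0.17, limma adjusted p = 0.000812).

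For the other partners of RAD no gene passed at Te as deposited, though summed levels were lower. None of 8 genes for calmodulin, calmodulin kinases and 14-3-3 proteins and none of 8 other Ras-like GTPases passed the test there. The calmodulin and 14-3-3 sum was 615 to 717 TPM at Te, against 878 to 1097 TPM at T0, and the Ras-like sum was 177 to 227 TPM at Te, against 228 to 271 TPM at T0, both without overlap. Under the other 3 scalings 3 of the calmodulin and 14-3-3 genes and 2 to 5 of the Ras-like genes did, mostly lower. Between abnormal and normal spleens, 5 of the 8 calmodulin and 14-3-3 genes were lower and 1 was higher, a share near that of all genes (54.2% lower and 7.75% higher). Under the other 3 scalings 2 to 3 were lower and 2 higher. Among them the calmodulin gene calm1a spanned 92.5 to 342 TPM in abnormal spleens, against 414 to 593 TPM in normal spleens (-1.15, SE 0.18, limma adjusted p = 2.63e-06). The 14-3-3 gene ywhaba fell by 1.31 (SE 0.20, limma adjusted p = 1.80e-06).

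Of the 8 Ras-like GTPases, 7 were lower in abnormal spleens as deposited, and 3 lower with 2 higher after median-of-ratios rescaling. Of all genes 54.2% were called lower as deposited and 28.4% after that rescaling. Among them rasl11b differed by -2.95 (SE 0.36, limma adjusted p = 4.80e-08) and ralba, which regulates vesicle traffic, by -1.56 (SE 0.19, limma adjusted p = 4.30e-08). Each of these 2 genes was lower in all 11 abnormal spleens than in any normal spleen, a separation not counted over all genes.

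Of 25 tested genes that p53 induces in human cells, 2 were higher and 2 lower at Te, where 5.23% of all genes were higher and 6.98% lower. Their median was -0.10, as was that of all genes. The cell cycle inhibitor cdkn1a had 5.23 ± 1.26 TPM at Te and 11.1 ± 2.71 TPM at T0 (-0.95, SE 0.27, limma adjusted p = 0.0192). The pleckstrin domain gene phlda3 differed by -1.15 (SE 0.28, limma adjusted p = 0.00696). The gene tigara, whose product lowers glycolytic flux, went the other way, with 2.12 ± 0.566 TPM at Te and 0.0425 ± 0.035 TPM at T0 (1.56, SE 0.18, limma adjusted p = 1.78e-06).

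In abnormal spleens 15 of the 25 p53 target genes were lower and 2 higher, with a median of -0.77 beside the -0.51 of all genes. These counts are close to the 54.2% lower and 7.75% higher of all genes. After median-of-ratios rescaling 9 were lower and 8 higher. The quinone oxidoreductase gene tp53i3 differed by a similar amount to rrad, at 3.48 to 200 TPM in abnormal spleens, against 473 to 958 TPM in normal spleens (-5.27, SE 0.50, limma adjusted p = 4.68e-10). The stress kinase gene plk2b (-2.03, SE 0.20) and the growth arrest gene gadd45ab (-2.31, SE 0.25) were also lower in every abnormal spleen than in any normal one. That separation was not counted over all genes.

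Genes of glucose use went against rrad at Te, and with it between abnormal and normal spleens. Summed, these genes had 708 to 1665 TPM at R1d, which overlapped the 820 to 1169 TPM of T0. Abnormal spleens had 368 to 1365 TPM, which overlapped T0 too, and normal spleens 2429 to 6341 TPM, above T0. All rrad levels at R1d and in abnormal spleens lay below T0. At Te 14 of 18 glucose uptake and glycolysis genes were higher and none lower, with a median of 1.82, where 5.23% of all genes were higher. The lactate dehydrogenase gene ldha had 1242 ± 321 TPM at Te and 132 ± 33.3 TPM at T0 (3.21, SE 0.43, limma adjusted p = 1.30e-05). Of 23 genes induced by low oxygen 11 were higher and none lower at Te. In abnormal spleens 16 of the 18 glycolysis genes were lower and 1 higher, with a median of -1.82, where 54.2% of all genes were lower. Under the other 3 scalings 14 were lower. There ldha was 28.6 to 179 TPM, against 351 to 1638 TPM in normal spleens (-2.99, SE 0.26, limma adjusted p = 1.04e-10), and 18 of the 23 low-oxygen genes were lower (15 under the other 3 scalings).

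Immediate early genes are the fast transcriptional response to stimuli. At Te 10 of 24 were lower and 1 was higher, where 6.98% of all genes were lower and 5.23% higher. The AP-1 subunit gene fosb had 0.780 ± 0.273 TPM at Te and 6.86 ± 3.71 TPM at T0 (-2.02, SE 0.31, limma adjusted p = 9.11e-05). The orphan receptor gene nr4a1 had 4.24 ± 1.03 TPM at Te and 23.4 ± 4.32 TPM at T0 (-2.23, SE 0.35, limma adjusted p = 0.000122). At R1d 16 of the 24 were lower than at T0 and none higher, where 20.1% of all genes were called and 15.9% were lower.

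In abnormal spleens 17 of the 24 immediate early genes were lower and 1 was higher, where 54.2% of all genes were lower and 7.75% higher. Their median was -1.06, and 12 to 13 were lower under the other 3 scalings. The AP-1 subunit gene fosl2 spanned 2.35 to 19.8 TPM in abnormal spleens, against 106 to 184 TPM in normal spleens (-3.96, SE 0.25, limma adjusted p = 1.30e-13). The MAP kinase phosphatase gene dusp1 spanned 2.96 to 22.2 TPM in abnormal spleens, against 61.4 to 876 TPM in normal spleens (-3.89, SE 0.31, limma adjusted p = 2.12e-11). The AP-1 subunit gene junbb differed by -3.22 (SE 0.33, limma adjusted p = 1.96e-09). On the log2(TPM + 1) scale fosl2, dusp1 and junbb differed by less than rrad in abnormal spleens. At Te rrad was chosen as the largest named fall, so its size is not compared with fosb and nr4a1.

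Other stress lists were mixed, and are read beside 5.23% of all genes higher and 6.98% lower at Te, and 7.75% higher and 54.2% lower in abnormal spleens. Of 16 glucocorticoid-responsive genes 3 were higher and 1 lower at Te, and 12 were lower in abnormal spleens (9 under the other 3 scalings). The glucocorticoid-induced factor klf9 rose by 1.12 at Te (SE 0.37, limma adjusted p = 0.0411) and was lower by -3.78 in abnormal spleens (SE 0.22, limma adjusted p = 4.40e-14). No NF-kB target of 9 passed at Te, and 7 were lower in abnormal spleens (5 to 6 under the other 3 scalings). Of 24 circadian clock genes 3 were higher and 6 lower at Te. The abnormal spleens split them into 4 higher and 7 lower as deposited, and 16 higher and 6 lower after median-of-ratios rescaling. Of 17 cell division genes, 3 were lower at Te and 16 in abnormal spleens (15 under the other 3 scalings).

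**Figure D3:**
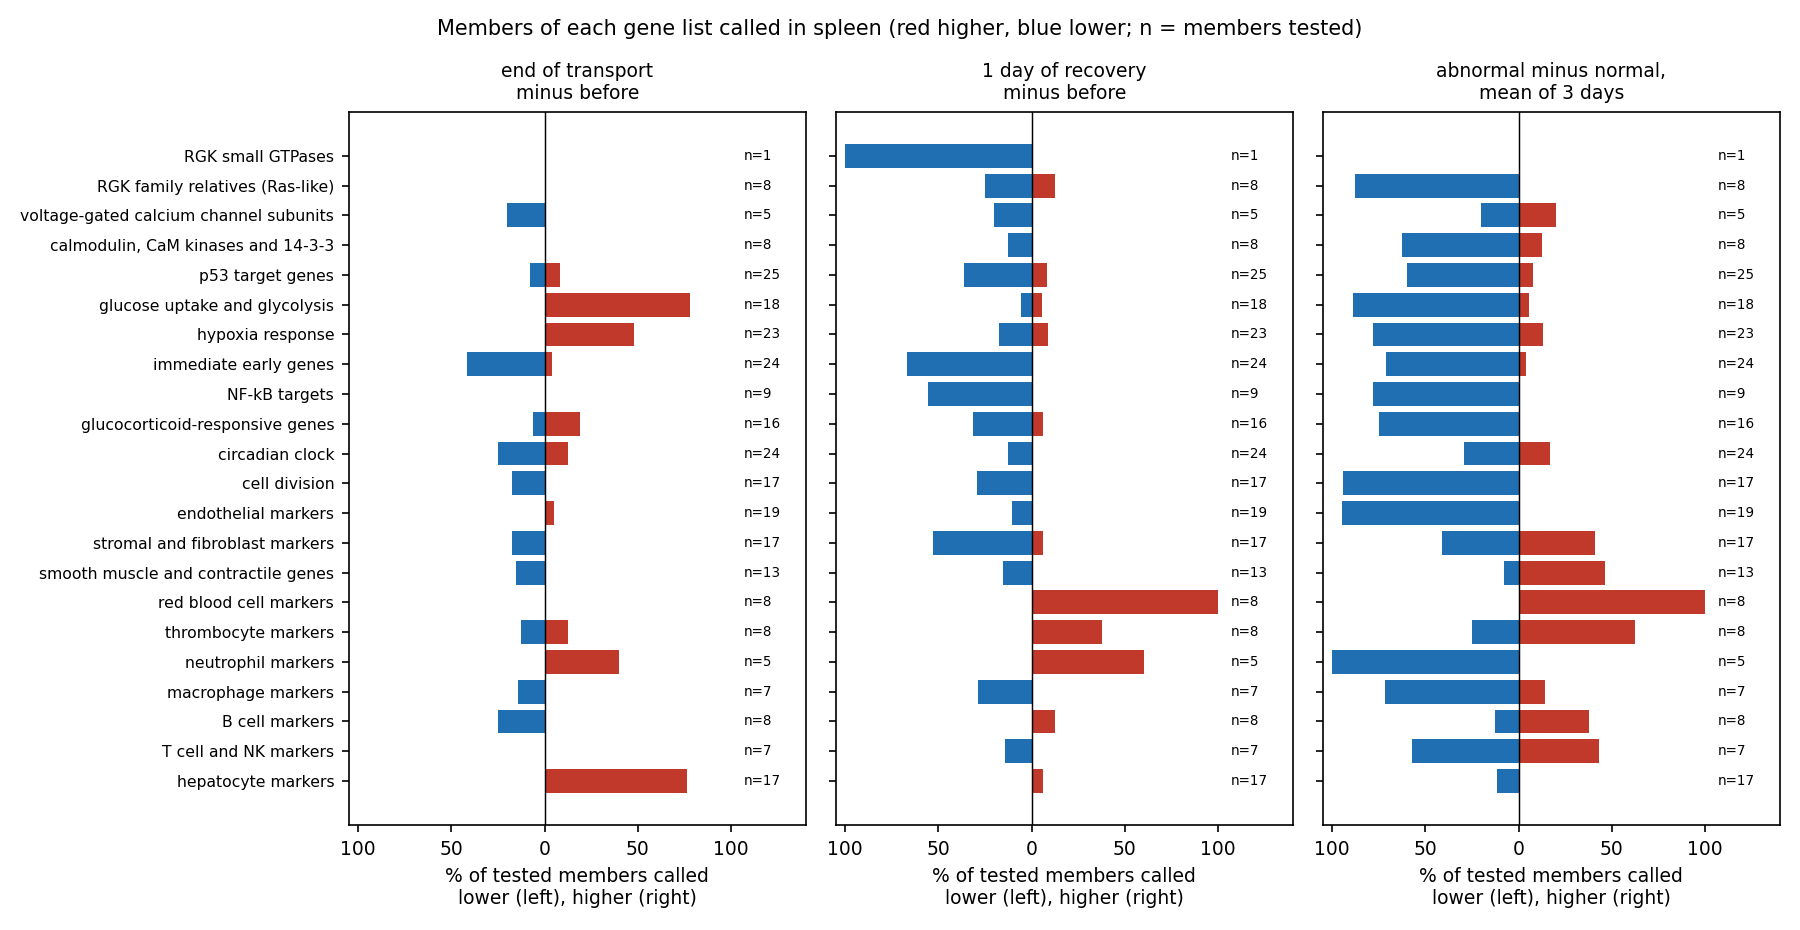
Percentage of the tested members of each gene list called lower (blue, to the left) or higher (red, to the right) in spleen at an adjusted p under 0.05, for Te minus T0, R1d minus T0 and abnormal minus normal over 3 days, with rrad itself left out. Glycolysis genes are called higher at Te and lower in abnormal fish, while immediate early genes are called lower in all 3 comparisons.

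Cell type markers moved with rrad in some comparisons and not in others. Fewer cells of a type and less RNA per cell cannot be told apart in such bulk samples. At Te no red blood cell marker of 8 and 1 endothelial marker of 19 passed the test, where 12.2% of all genes were called. The summed red blood cell markers were 302 to 631 TPM at Te and 334 to 597 TPM at T0. The summed endothelial markers were 623 to 906 TPM at Te and 574 to 710 TPM at T0. Both sums overlapped between Te and T0.

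Other lists did move at Te, where 5.23% of all genes were called higher and 6.98% lower. Of 17 stromal markers 3 were lower and none higher, and their sum was 1451 to 1831 TPM at Te against 2006 to 2700 TPM at T0. The lymphatic factor gene ccbe1 had 9.47 ± 0.888 TPM at Te and 59.7 ± 2.90 TPM at T0 (-2.54, SE 0.39, limma adjusted p = 7.62e-05). Summed smooth muscle and contractile genes were 1619 to 3124 TPM at Te and 3173 to 4425 TPM at T0. Of 17 hepatocyte markers 13 were higher at Te, with a sum of 1208 to 6576 TPM at Te and 318 to 708 TPM at T0. Of 5 neutrophil markers 2 were higher at Te, with a sum of 369 to 781 TPM at Te and 93.0 to 153 TPM at T0. No T cell marker of 7 passed, and their sum was 136 to 182 TPM at Te and 198 to 252 TPM at T0, without overlap. The B cell, macrophage and thrombocyte sums overlapped between Te and T0. The part of these shifts in the level of rrad was not tested.

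The make-up of the spleen RNA differed strongly between R1d and T0, and between abnormal and normal fish. All 8 red blood cell markers were higher at R1d than at T0, where 4.17% of all genes were called higher. Their sums were 1371 to 7142 TPM at R1d and 334 to 597 TPM at T0. All 8 were also higher in abnormal spleens, where 7.75% of all genes were called higher. Their sums were 685 to 2085 TPM in abnormal spleens and 59.2 to 551 TPM in normal spleens. The erythroid gene hemgn spanned 133 to 417 TPM in abnormal spleens, against 5.67 to 45.0 TPM in normal spleens (3.88, SE 0.24, limma adjusted p = 1.17e-13). The haemoglobin gene hbae5 alone reached 26841 to 134804 TPM in abnormal spleens, against 431 to 8275 TPM in normal spleens. It was 31026 to 71664 TPM at T0, where rrad was high. Abnormal spleens thus overlapped T0 in hbae5, and normal spleens lay below it, while the summed red blood cell markers of abnormal spleens lay above T0. The 10 most abundant genes of the spleens took 19.4% to 61.4% of all TPM in abnormal spleens, against 4.34% to 11.2% in normal spleens. At T0 they took 12.1% to 21.9%, which overlapped abnormal spleens and lay above normal ones.

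Endothelial markers went down with rrad in abnormal fish. Of 19, 18 were lower, where 54.2% of all genes were lower, and 16 were lower under the other 3 scalings, where 28.4% to 29.7% were. The markers had sums of 87.4 to 491 TPM in abnormal spleens and 864 to 1404 TPM in normal spleens. The vascular receptor gene kdrl differed by -2.88 (SE 0.24, limma adjusted p = 5.05e-11) and the caveolar gene plvapa by -3.26 (SE 0.24, limma adjusted p = 4.67e-12), while the angiopoietin receptor relative tie1 lost its call under all 3 other scalings. All 5 neutrophil markers and 5 of 7 macrophage markers were lower in abnormal spleens, while 5 of 8 thrombocyte markers were higher, beside 7.75% of all genes. Under the other 3 scalings these counts were 5, 4 to 5 and 5. Not all thrombocyte markers went up: f5 was 0.46 to 2.98 TPM in abnormal spleens, against 3.11 to 10.98 TPM in normal spleens. The marker fli1 was called lower as deposited (-0.72) and lost that call under the other 3 scalings. The smooth muscle, B cell, stromal, hepatocyte and T cell sums overlapped between abnormal and normal spleens. Single members of a list could differ more than its sum. The B cell marker cd79a was 105 to 298 TPM in abnormal spleens, against 18.1 to 76.7 TPM in normal spleens. The markers pax5 and ebf1a were also higher in every abnormal spleen than in any normal one, a separation not counted over all genes. The marker cd22 overlapped, with medians of 3.65 TPM abnormal and 6.53 TPM normal. Median sums went against rrad for smooth muscle and contractile genes (1580 TPM abnormal, 981 TPM normal) and B cell markers (354 and 256 TPM). They went with rrad for stromal (750 and 1102 TPM), hepatocyte (525 and 4154 TPM) and T cell markers (117 and 156 TPM). The hepatocyte difference lay mostly in rbp4, with medians of 160 TPM abnormal and 3772 TPM normal. Smaller differences were seen in cps1 (14.3 and 38.7 TPM), ahsg2 (6.44 and 11.6 TPM), tdo2a (0.96 and 1.36 TPM) and hpxa (11.4 and 11.6 TPM). The hepatocyte marker tat went the other way (0.74 and 0.56 TPM), so the sum does not describe the list as a whole. Genes of the lists at 0 in a whole group were sought among T0, Te, R1d, all abnormal and all normal spleens. Only rasd1 at R1d and actc1a in abnormal fish were found. Single days of abnormal or normal spleens, and livers, were not checked in this way. The part of these shifts in the rrad difference was not tested.

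**Figure D4:**
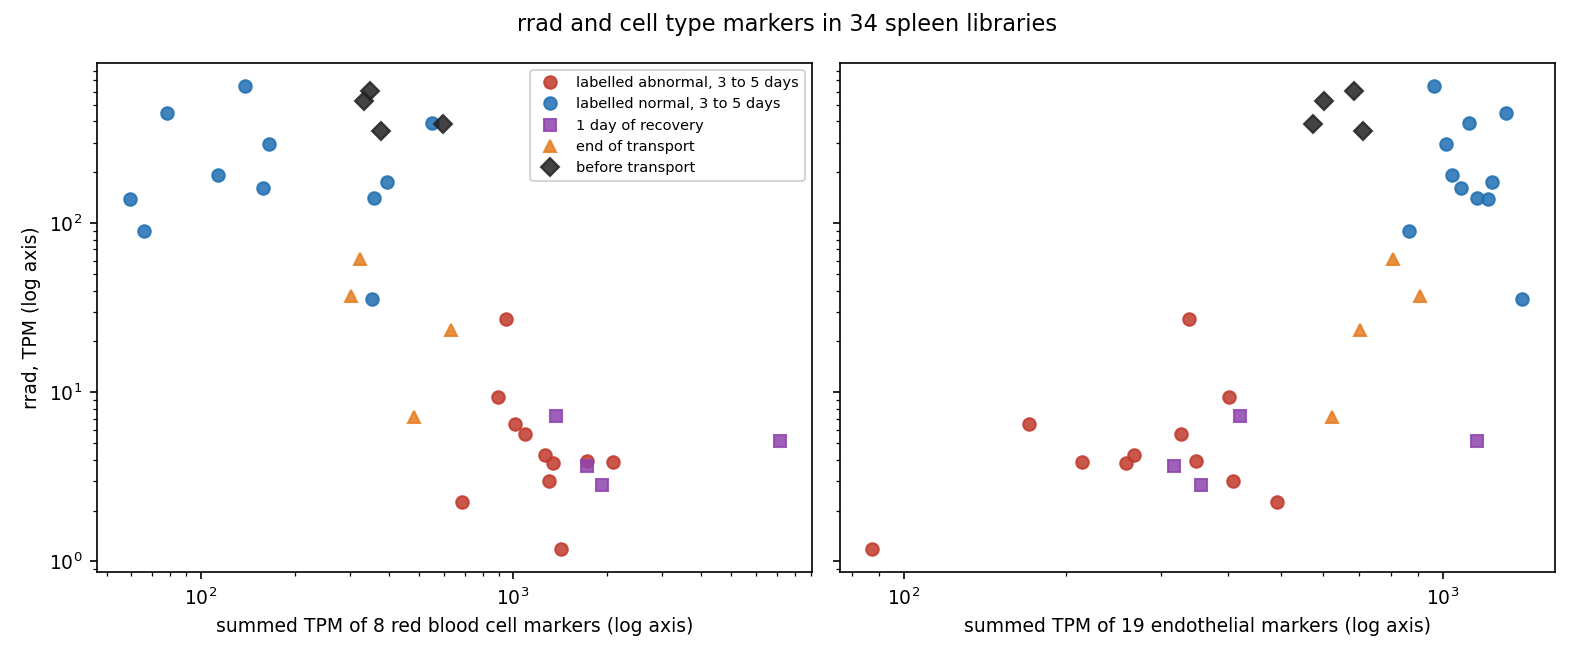
Level of rrad in TPM (log axis) in each of the 34 spleens against the summed TPM (log axis) of 8 red blood cell markers on the left and 19 endothelial markers on the right, coloured by condition. Te and T0 points overlap in their red blood cell sums, and abnormal and R1d points lie at high red blood cell sums.

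In liver too, all 8 red blood cell markers were called higher in abnormal than in normal fish. The haemoglobin gene hbae5 was 917 to 5007 TPM in abnormal livers, against 103 to 674 TPM in normal livers. It was 2016 to 7352 TPM at T0 and 4912 to 7949 TPM at Te. Abnormal livers thus overlapped T0 in hbae5, and normal livers lay below it. Compared with normal fish, abnormal livers had more haemoglobin transcript and less rrad, as abnormal spleens did. Of 19 immediate early genes tested in liver 5 were lower and 4 higher in abnormal fish, with a median of 0.01. These counts are near the 21.3% lower and 29.1% higher of all liver genes. Of 17 glycolysis genes 8 were lower and 2 higher. The summed TPM of the glycolysis list went the other way, without overlap on any day. On day 3 it was 2515 to 5546 TPM in abnormal livers, against 1172 to 1714 TPM in normal livers. It was 4879 to 5552 TPM against 1253 to 2838 TPM on day 4, and 5377 to 6419 TPM against 1159.5 to 2585 TPM on day 5.

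Genes whose group means ran most like those of rrad were ranked by Pearson r over the 18 group means of log2(TPM + 1). The 8 highest of 9238 genes were zgc:162730 (0.977), f2rl2 (0.976), matn4 (0.967), rab38b (0.962), si:dkey-206d17.12 (0.960), ptger4b (0.959), trim8a (0.958) and malt3 (0.957). The 18 points fall into a liver cluster and a spleen cluster, and the median gene had r = 0.761, so these values mostly describe a level high in spleen and low in liver. Within the 9 spleen groups alone their r was 0.909 to 0.983. None of the 8 was kept when Spearman's rank correlation was used in its place.

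The group means of these genes spanned less than those of rrad, whose span includes the T0 and Te groups that chose it. The gene zgc:162730 had 281 ± 54.4 TPM at Te and 621 ± 99.6 TPM at T0, and 49.8 to 291 TPM in abnormal spleens, against 361 to 1026 TPM in normal spleens. The thrombin receptor relative f2rl2 had 5.56 ± 1.38 TPM at Te and 11.6 ± 2.70 TPM at T0, and 0.71 to 3.36 TPM in abnormal spleens, against 8.46 to 24.6 TPM in normal spleens. The prostaglandin E2 receptor gene ptger4b overlapped between Te and T0 but was 0.87 to 5.8 TPM in abnormal spleens, against 26.2 to 63.2 TPM in normal spleens. At the other end, the NMDA receptor subunit gene grin1b (r = -0.946) and the citrate carrier gene slc25a1b (r = -0.914) were higher in abnormal spleens but overlapped between Te and T0. The gene grin1b was 4.27 to 13.7 TPM at Te, against 6.92 to 9.65 TPM at T0, and slc25a1b was 5.45 to 10.9 TPM at Te, against 6.26 to 9.09 TPM at T0. They were 16.4 to 42.1 TPM and 20.3 to 54.6 TPM in abnormal spleens, against 1.87 to 8.56 TPM and 5.24 to 14.1 TPM in normal spleens.

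A ranking that removes group differences used the deviations of the 34 spleens from their group means. The highest r were 0.726 for calcrla, a calcitonin receptor-like gene, 0.686 for the cytokine signalling inhibitor socs3a and 0.666 for zgc:162730 and for the chloride channel gene clic2. They were followed by batf2 (0.665), ier2b (0.660), spry4 (0.650) and rgs5b (0.637), against a median of 0.151 over all genes. Depth is not known, and make-up differed within groups. The 10 most abundant genes of the spleens took 19.4% to 61.4% of TPM among the R4d abnormal spleens alone. These values are descriptions of 34 points, and the part of make-up in them was not tested. Leaving out the 2 spleens whose rrad lay farthest from their own group mean gave 0.552 to 0.701 for the 8 genes. Only zgc:162730 was in both rankings.

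The 7 other genes of that ranking were not chosen by group differences and could be tested on them. At Te the immediate early gene ier2b had 27.9 ± 4.12 TPM, against 72.4 ± 13 TPM at T0 (-1.34, SE 0.34, limma adjusted p = 0.00898). The gene clic2 also was lower at Te (-0.80, limma adjusted p = 0.0152), as was socs3a (-1.66, limma adjusted p = 0.0465), though socs3a did not pass after median-of-ratios rescaling. The other 4 did not pass at Te, where 12.2% of all genes were called. In abnormal spleens all 7 passed as lower, where 54.2% of all genes were called lower. The largest were socs3a (-3.41, limma adjusted p = 1.23e-09) and spry4, an inhibitor of receptor kinase signalling (-2.47, limma adjusted p = 2.64e-09). Of the 7, clic2 and rgs5b did not pass under the other 3 scalings.

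**Figure D5:**
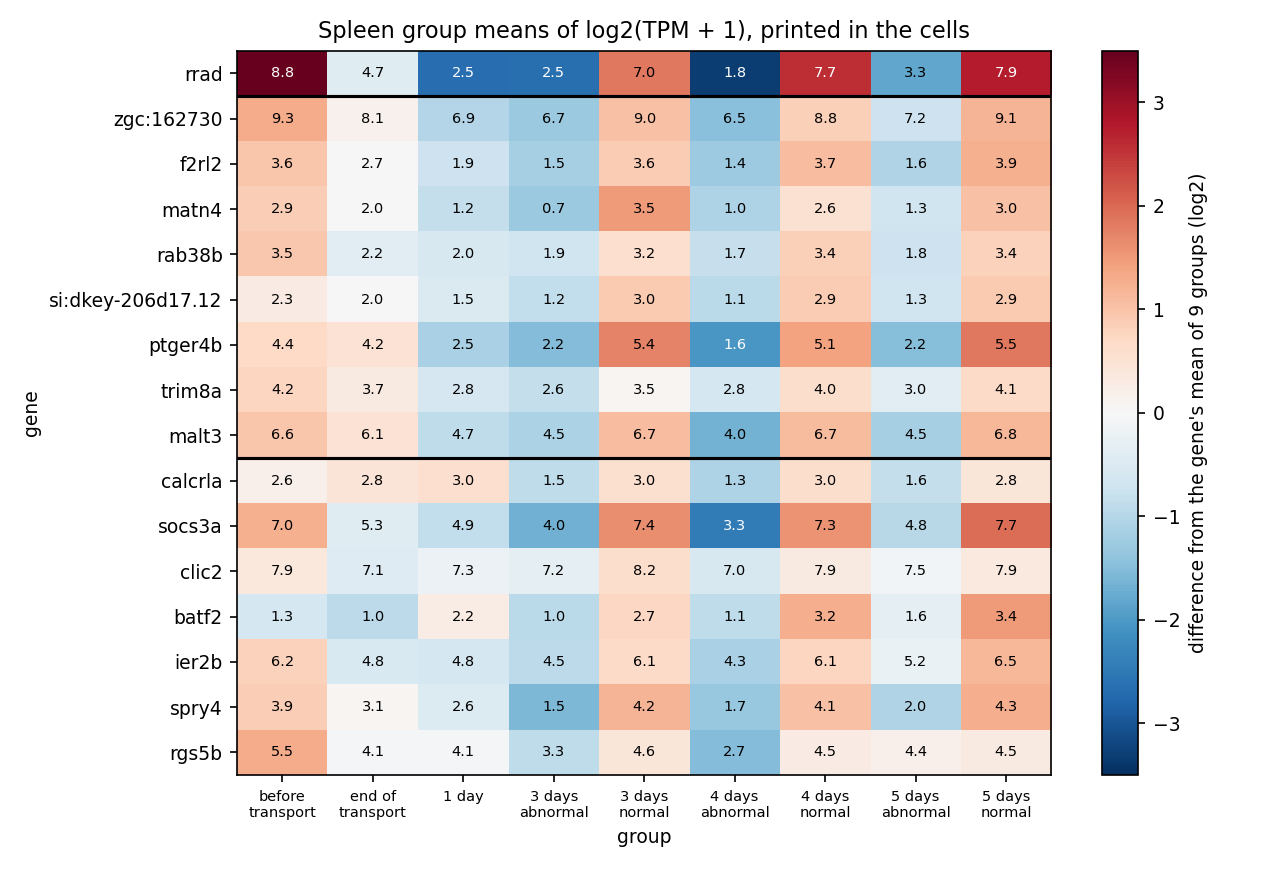
Mean log2(TPM + 1) of rrad, of the 8 genes most like it over group means and of 7 genes most like it within spleen groups (rows) in the 9 spleen groups (columns), with each cell coloured by its difference from the mean of that gene over the 9 groups. The swing of rrad, with means between 1.80 and 8.84, is wider than that of any other gene shown. It includes the T0 and Te groups that chose rrad.

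The genes next to rrad in the RefSeq gene order of assembly ASM1485139v1 had smaller fitted differences on the log2(TPM + 1) scale. At Te that follows from the choice of rrad as the largest named fall. On one side lie nsun3 and LOC119890133, and on the other cdh16 and ca7, the last of which was not analysed here. At Te none of the 3 analysed neighbours passed the test. In abnormal spleens nsun3 differed by -0.44 (limma adjusted p = 0.0180) and LOC119890133 by -0.81 (limma adjusted p = 0.00258), and both calls were lost under the other 3 scalings. The cadherin gene cdh16 differed by -1.63 (SE 0.23, limma adjusted p = 4.63e-07), at 0 to 0.05 TPM in abnormal spleens, against 0.55 to 8.57 TPM in normal spleens. At such low levels the scale understates the ratio: its medians were 0.02 TPM in abnormal and 1.87 TPM in normal spleens.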

How the data were processed

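Gene-level TPM for 18666 genes in 68 libraries (all used) were deposited by the authors. The libraries were stranded and free of ribosomal RNA by depletion, per the labels' protocols. The tools named per the submitters' processing notes are fastp 0.23.2, a read trimmer, and Salmon 1.10.0, a transcript quantifier. The reference they used is not given in the sources used here. TPM sums were 995833 to 999254 per library, so depth is unknown and a transcript's share falls when a few others take more of the library.

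Values were analysed as log2(TPM + 1), with genes at 1 TPM or more in at least 3 libraries of the tissue (15430 in liver, 17998 in spleen). Per tissue, limma 3.58.1 in R 4.3.3 fitted 9 group means with a shared, trended variance, and p-values were adjusted by Benjamini-Hochberg over all genes tested. The interaction between tissues used all genes and 68 libraries in 1 fit, taken as separate samples. The fits were tested on simulated data. Exact permutation tests went through every split of the libraries with NumPy 2.4.6, in Python 3.11.15. Group differences are the first group minus the second. Fold changes on this scale understate those of low genes.

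Gene lists were written by hand from textbook roles, and the members and lists were chosen with earlier results of these data known. A further list is not reported here. Genes named beside rrad are its RGK relatives, up to 3 members of each list with the smallest p per comparison, the genes most and least like it (a mean of 5 TPM or more in at least 1 group) and its neighbours. RefSeq held 18657 of the 18666 names. Alternatives were other pseudocounts, filters, scalings, weights, blocks and left-out libraries.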

Additional observations from a re-analysis of the deposited data

Results flagged for a closer look

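Within the groups of 4 libraries, the highest or lowest value was compared with the spread of the others by Dixon's test at its 95% critical value, in 14 groups. That value assumes a bell-shaped spread, under which chance alone flags about 1 group in 20. The test was run on TPM and not on log2(TPM + 1), so that rate need not hold here. In spleen the highest normal fish of day 5, with 647.23 TPM of rrad, lay far above the others of its group at 176, 194 and 140.05 TPM (ratio 0.894). In liver 1 fish of R1d, with 4.03 TPM, lay far above 0.08, 0.24 and 0.32 TPM in the others (ratio 0.939), and that library was one of the 2 livers that stood apart from their groups over all genes. The abnormal minus normal difference of rrad was larger in spleen than in liver by -4.21 on the log2(TPM + 1) scale, tested as an interaction in limma (adjusted p = 3.18e-11), with lower levels in abnormal fish in both tissues. With 31 of 34 livers below 1 TPM, that scale understates the liver difference, so this test cannot compare the ratios of the 2 tissues. With a pseudocount of 0.1 the difference between tissues was -2.98.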

How the results depend on the processing

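Every spleen difference of rrad between abnormal and normal fish, and that of normal fish from R1d, kept its direction and passed the test under every alternative that gave a value: pseudocounts of 0.1 and 0.5, quantile normalization, median-of-ratios rescaling, array weights, a filter of 5 TPM or none, a fit of the compared groups alone, each library left out in turn and, chosen after seeing the data, leaving out the 10 most abundant genes. The 3-day difference was -5.29 to -4.35 over these settings and -5.30 to -4.73 with 1 library left out. The difference of abnormal fish from R1d, which did not pass, turned to -0.0069 without the 10 most abundant genes and was -0.10 to 0.27 with 1 library left out. The difference between tissues was -4.51 to -3.94 with 1 library left out and passed throughout.

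The liver result depends on settings. The liver difference between Te and T0 turned to 0.067 after median-of-ratios rescaling, 0.14 after quantile normalization and 0.038 with array weights, and was -0.17 to 0.047 with 1 library left out, without passing the test. The abnormal minus normal difference on day 3 passed with a pseudocount of 0.1 (-2.62) and with array weights (-1.14), and was -1.45 to -1.04 with 1 library left out, passing without normal fish 1 or 2. On day 4 it passed with pseudocounts of 0.1 (-2.77) and 0.5 (-1.36), quantile normalization (-1.01) and array weights (-0.80). Normal livers of day 3 passed against T0 with array weights (0.83). Normal livers of day 5 differed from T0 by -0.013 to 0.20 with 1 library left out. The cause of these changes was not tested. The 3-day liver difference passed in each setting that gave one, at -2.31 to -0.77 over settings (-2.31 with a pseudocount of 0.1 and -1.19 with 0.5) and -0.92 to -0.76 with 1 library left out. With a filter of 5 TPM, without the libraries that stood apart, or without any of the 3 livers above 1 TPM, rrad had too few libraries above the filter to be tested in liver.

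Called members of the gene lists at Te numbered 82, against 159 with array weights and 148 in a fit of the 2 groups alone. With Spearman's rank correlation 0 of the 8 genes most like rrad were kept. Same-numbered libraries of abnormal and normal fish of a day, within a tissue, correlated at -0.188 to 0.140 in their deviations, so the numbers do not pair those groups. Same-numbered liver and spleen correlated at a median of 0.203, with 23 of 34 pairs over 0.1, a hint from the data only. The difference between tissues with that pairing, chosen after seeing the data, was -4.21 (adjusted p = 1.62e-09). The fit with the replicate number as a block gave -5.00 in spleen (adjusted p = 5.58e-11) and -0.79 in liver (adjusted p = 0.00236) over the 3 days, 85 list members at Te, and changed no call of rrad.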
